A study of Mus musculus with 11 samples.

Results

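Forelimbs of mouse embryos that carry an inserted stop cassette were compared with wild-type forelimbs by capture Hi-C, an assay that cuts crosslinked chromatin with an enzyme, joins the ends that lie close together and reads out which loci touched. The stop-cassette embryos gave 2 libraries and the wild-type forelimbs gave 3, together 5 of the 11 libraries of the series. All were labelled embryonic day 9.5. The genotype is given as wild type or as a mutant with a stop cassette insertion, and the titles of the mutant libraries carry the tag 3xpA. The strain field names the cross c57bl6.J X 129S6.sv for every library. CD1 is tagged in the titles of wild-type forelimbs instead, and their library numbers lie apart from those of the mutants, so strain, library series and genotype cannot be told apart. The dissection protocol also names a later embryonic day. Wild-type forebrain and wild-type midhindbrain boundary, with 3 libraries each, served as further wild-type references. Their titles carry no CD1 tag, and their library numbers lie nearer to those of the mutants than to those of wild-type forelimbs. Where mutant and brain maps depart together from wild-type forelimb, this shared labelling cannot be told apart from tissue or genotype. The number of embryos, of mutant lines and the zygosity are not given in the labels.

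The libraries of a group were merged into 1 map before deposit, which leaves 2 forelimb maps of 4 in all and no spread between replicates. Every interval given is a 95% interval for counting error only, and a test between merged maps bears on their reads and not on the conditions. Each map covers 120.2 to 124.4 Mb of chromosome 1 (mm9, per the submitters' processing notes) in 420 bins of 10 kb, or 88410 bin pairs. Block values, bin pair tests and the distribution over distance used only bin pairs at 30 kb or more. The raw maps held 7662227 contacts in the stop-cassette forelimb and 8823849 in the wild-type forelimb, against 9489482 in the forebrain and 9523316 in the midhindbrain boundary. Of these, 4215764, 5471344, 5350268 and 5288015 in the same order lay at 30 kb or more. The En1 domain, taken here as 122.47 to 123.08 Mb, spans 61 bins and 1711 bin pairs at 30 kb or more. Those bin pairs held 423427 contacts in the stop-cassette map, with a median of 202 per bin pair, and 584617 in the wild-type forelimb, with a median of 288. No mm9 gene annotation was used, so no bin was assigned to a gene, exon or intron, and the position of the cassette was not used here. Single bins are named by their first base. Contact maps hold no marker genes against which the labelled tissues could be checked.

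Mammalian chromosomes fold into domains whose loci touch one another more often than they touch loci beyond the domain's boundaries. En1 encodes the homeobox transcription factor Engrailed-1, which patterns the midbrain and hindbrain and, in the limb bud, the ventral ectoderm. Maenli, named in the series title, is a long non-coding RNA linked there to En1-dependent limb malformations, and a stop cassette is a run of polyadenylation signals that ends transcription where it is inserted. The comparison asks whether the cassette alters the folding around En1. En1 is expressed in the ventral ectoderm, a thin layer, whereas these maps come from dissected limbs, in which other cell types contribute most of the chromatin.

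In the RefSeq gene order of GRCm38.p6, the protein-coding neighbours of En1 are Marco and Insig2, and 9 long non-coding RNA genes lie between En1 and Insig2. Maenli is not among the symbols of that gene table. The En1 promoter is shown because ligated ends arise at cuts of DpnII, the enzyme named in the labels, which cuts at GATC. It spans 250 bases before to 50 bases after the gene's start on the plus strand, chr1:120602237-120602536 in GRCm38.p6, a build whose positions differ from those of the maps. Its 1 GATC is in capitals, a palindrome that reads the same on both strands.
En1 promoter (RefSeq, GRCm38.p6): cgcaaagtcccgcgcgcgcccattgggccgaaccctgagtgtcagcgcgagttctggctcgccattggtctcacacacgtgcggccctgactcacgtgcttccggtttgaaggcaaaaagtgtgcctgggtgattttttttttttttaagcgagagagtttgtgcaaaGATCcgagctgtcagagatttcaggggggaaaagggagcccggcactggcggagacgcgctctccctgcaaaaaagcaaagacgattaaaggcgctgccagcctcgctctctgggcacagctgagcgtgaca
GATC occurs in 48.0% of the 32851 RefSeq promoters of this length, so the En1 promoter is not unusual in this. It is rich in CpG, with 23 against a median of 7 per promoter. A match to these letters is a description and says nothing of how often the site was cut.

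The forelimb maps shared their main layout, and they differed less inside the En1 domain than in its contacts with distant chromatin to the right. Contacts were measured as observed over expected: the mean balanced signal of a block of bin pairs over the mean of all bin pairs of the same map at the same distances. A value of 1 is the average of the map. Contacts inside the En1 domain stood at 1.09 in the stop-cassette forelimb, 1.12 in the wild-type forelimb, 1.13 in the forebrain and 1.10 in the midhindbrain boundary. The log2 difference between stop cassette and wild type was -0.042 (95% counting interval -0.048 to -0.036), a change of -2.87%. The domain thus held slightly fewer internal contacts in the stop-cassette map, by more than counting error. The midhindbrain boundary, a wild-type tissue, was -0.035 from the same wild-type forelimb map, and forebrain was 0.013 from it. These comparisons share the wild-type forelimb map. Without scaling within distance the stop-cassette difference was -0.076.

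The lower level inside the domain lay in its long contacts. Between 30 and 100 kb the log2 difference was 0.0062, with a counting interval of -0.0033 to 0.016 that includes 0. It was -0.028 from 110 to 200 kb, -0.071 from 210 to 300 kb, -0.11 from 310 to 400 kb and -0.15 from 410 to 500 kb. At 510 to 600 kb, where only loci near opposite ends of the domain can meet, it was -0.17 (-0.20 to -0.13). The difference therefore grew band by band, from none detectable at this depth to a loss of more than 10% (-10.9%). In that longest band observed over expected was 3.63 in the stop-cassette forelimb, 4.07 in the wild-type forelimb, 4.95 in the forebrain and 3.91 in the midhindbrain boundary. Against the same wild-type forelimb map, midhindbrain boundary stood at 0.0092, -0.025, -0.079, -0.11, -0.14 and -0.057 over these bands, and forebrain at -0.0067, -0.0051, -0.027, -0.0048, 0.074 and 0.28. Both again share the wild-type forelimb map with the stop-cassette values. In the longest band forebrain lay above wild-type forelimb and the other 2 maps below it.

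**Figure D1:**
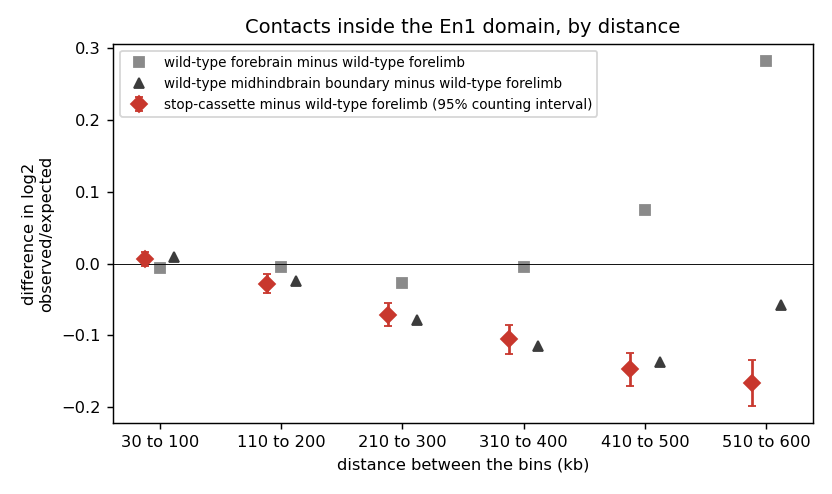
Difference in log2 observed over expected from the wild-type forelimb map (y axis) against the distance between bins (x axis, kb), for bin pairs inside the En1 domain. Diamonds are the stop-cassette forelimb with 95% counting intervals, squares wild-type forebrain and triangles wild-type midhindbrain boundary; the stop-cassette values fall from 0.0062 to -0.17, while forebrain ends at 0.28.

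The corner of the domain, where its first 5 bins meet its last 5, is the place where a loop or a strong boundary pair shows in such maps. Corner contacts were 4.55 times the expected level in the stop-cassette forelimb (counting half-width 0.103, from 8099 contacts) and 5.14 times in the wild-type forelimb (0.0991, from 11427). They were 6.67 times the expected level in forebrain and 4.95 times in midhindbrain boundary. The stop-cassette map was the lowest of the 4, at a log2 difference of -0.18 (-0.22 to -0.13) from wild-type forelimb or -11.6%. The corner nevertheless remained the most enriched of the 6 complete intervals of this map, since the other 5 had between 0.793 and 2.18 times the expected level. The bands of contacts that run from each edge into the domain were lower too. The left-edge stripe, made of the first 5 bins with the rest of the domain, stood at 1.13 against 1.17 in wild type, a log2 difference of -0.056 (-0.072 to -0.039). The right-edge stripe stood at 1.30 against 1.35, a log2 difference of -0.048 (-0.065 to -0.032). On raw counts without balancing these differences were smaller, at -0.069 for the corner and -0.021 for the left-edge stripe. Without scaling within distance the left-edge stripe gave -0.096.

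The 5 other complete intervals did not all differ in the same direction at their corners. For these comparisons the region was divided at the 7 boundaries called in wild-type forelimb into 8 intervals, numbered from left to right, of which the En1 domain is interval 6. Interval 3 (120.98 to 121.36 Mb) had 2.18 at its corner against 2.41 in wild type, a log2 difference of -0.15. Interval 5 (121.91 to 122.47 Mb), left of the En1 domain, had 1.47 against 1.26, a log2 difference of 0.22, and interval 7 (123.08 to 123.47 Mb), right of it, had 0.793 against 0.714, a log2 difference of 0.15. The 2 corners most enriched in wild type, those of intervals 6 and 3, were thus lower in the stop-cassette map, and the corners of both neighbours of the En1 domain were higher. Interval 4 had 1.37 against 1.34, with a counting interval for the log2 difference of -0.040 to 0.10 that includes 0. Interval 2 had 2.05 against 2.14, a log2 difference of -0.059.

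The boundaries on both sides of the En1 domain were slightly weaker in the stop-cassette map. Insulation was scored as the log2 of the mean balanced signal in a 200 kb square across a bin edge over its mean in the map, so a lower score means fewer contacts across. At the left boundary the score was -0.94 in the stop-cassette forelimb, -1.05 in the wild-type forelimb, -0.94 in the forebrain and -0.99 in the midhindbrain boundary. The difference of 0.11 (0.095 to 0.13) left the stop-cassette score at the level of forebrain. At the right boundary the scores were -0.44, -0.51, -0.60 and -0.53 in the same order, and here the stop-cassette map was the weakest of the 4, at 0.072 (0.054 to 0.090) above wild-type forelimb. Differences between these maps over all 381 edges scored had an SD of 0.071, so the right boundary differed by about that much and the left one by more. A larger difference was found at the boundary between intervals 2 and 3, at 0.20. Of the 60 edges inside the domain, the stop-cassette map scored higher at 28 and lower at 32. At the edge with the highest wild-type score, 122750001, the score was 0.18 in the stop-cassette forelimb and 0.26 in the wild-type forelimb, with forebrain at 0.22 and midhindbrain boundary at 0.17. From its lowest to its highest edge the score spanned 1.17 in the stop-cassette domain against 1.31 in the wild-type forelimb, 1.16 in the forebrain and 1.20 in the midhindbrain boundary. The left boundary difference was 0.063 with a 100 kb square and 0.053 with a 300 kb square.

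**Figure D2:**
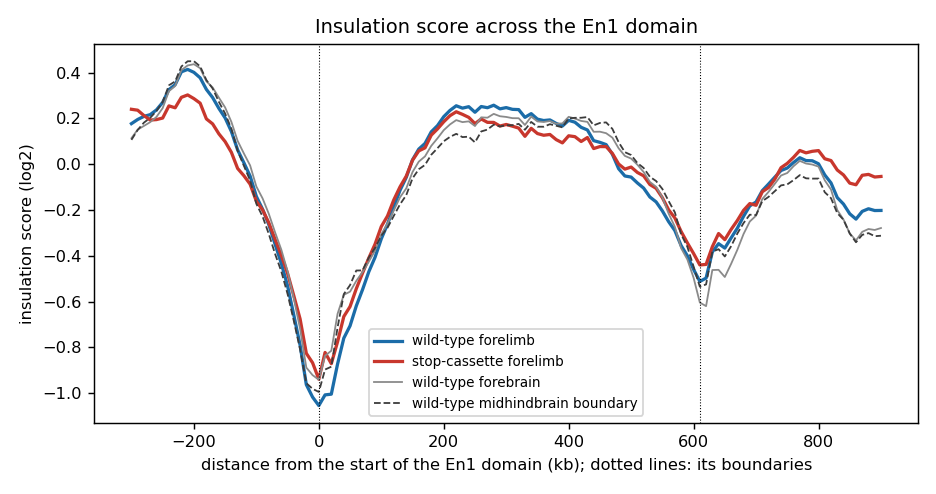
Insulation score (y axis, log2) against distance from the start of the En1 domain (x axis, kb) in the 4 merged maps, with dotted lines at the domain's boundaries. All maps dip at both boundaries; the stop-cassette line reaches -0.94 at the left one, where wild-type forelimb reaches -1.05, and lies above the other 3 at the right one.

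Contacts of the En1 domain across its left boundary, up to 1 Mb away, hardly differed. They stood at 0.696 in the stop-cassette forelimb, 0.704 in the wild-type forelimb, 0.724 in the forebrain and 0.690 in the midhindbrain boundary, a log2 difference of -0.016 (-0.025 to -0.0075) between the forelimb maps. The sign of this difference turned on raw counts, to 0.0097, so no direction is given for it. Without scaling within distance it was -0.057. The small total joined opposite parts. With interval 5 next to it, the En1 domain stood at 0.712 against 0.728 in the wild-type forelimb, a log2 difference of -0.033 (-0.043 to -0.024), with 0.753 in the forebrain and 0.717 in the midhindbrain boundary. With interval 4 (121.36 to 121.91 Mb), one interval further away, it stood at 0.586 against 0.529, a log2 difference of 0.15 (0.12 to 0.18), with 0.511 in the forebrain and 0.494 in the midhindbrain boundary. The stop-cassette map was the highest of the 4 in the contacts with interval 4.

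The difference in leftward contacts varied along the domain. In 12 pieces of 50 kb from left to right, which leave out its last bin, the log2 difference of contacts with the left side was 0.13 and 0.17 in the first 2 pieces, between 0.061 and 0.068 in the next 2, and negative in the other 8. It was lowest in the last 2 pieces, at -0.19 each. The end of the domain next to the left boundary thus had more contacts with the left side in the stop-cassette map, relative to expected, and the far end had fewer, each by more than counting error. Midhindbrain boundary minus forebrain, both wild type, was -0.0059 and -0.14 in the first 2 pieces and -0.17 and -0.14 in the last 2. Far-end values of nearly this size were therefore also found between wild-type tissues. Both of their first 2 pieces were negative, however, and the second was about as low as the far end. Contacts inside the domain varied less by position, with a log2 difference between -0.072 and -0.0086 in all 12 pieces.

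Across the right boundary the En1 domain had more contacts in the stop-cassette forelimb. Up to 1 Mb away these stood at 0.907 in the stop-cassette forelimb, 0.853 in the wild-type forelimb, 0.842 in the forebrain and 0.917 in the midhindbrain boundary. The log2 difference between the forelimb maps was 0.087 (0.078 to 0.096), a change of 6.23%, and 0.047 without scaling within distance. Midhindbrain boundary stood as high as the stop-cassette map, but in other contacts. With the adjacent interval 7 the stop-cassette domain stood at 0.987, wild-type forelimb at 0.972, forebrain at 0.978 and midhindbrain boundary at 1.07, so midhindbrain boundary was the one that differed most there. With interval 8 (123.47 to 124.4 Mb) the stop-cassette domain stood at 0.692, wild-type forelimb at 0.530, forebrain at 0.458 and midhindbrain boundary at 0.487.

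The contacts between the En1 domain and interval 8 were thus depleted in all 4 maps and least so in the stop-cassette map. They differed from wild type by 0.39 on the log2 scale (0.36 to 0.41), or 30.7%, from 37888 contacts in the stop-cassette map and 37117 in the deeper wild-type map. Among the 22 pairs of intervals with at least 100 bin pairs within 1 Mb, an interval with itself included, this was the largest difference in either direction. The next was 0.21 between intervals 3 and 5, and the SD over the 22 was 0.12, against 0.067 between the brain maps. The same SD was not taken for the brain maps against wild-type forelimb. The block was singled out after its values were seen. Its value lay between 0.37 and 0.41 in all 4 alternatives tried for it. The bin with the fewest contacts of every map lies in interval 8, and without the thinnest 5% of bins the difference was 0.39.

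Interval 8 starts 390 kb from the end of the En1 domain, and the difference was present along the whole domain. In the 12 pieces of 50 kb it ranged from 0.24 to 0.49, with the highest values at 0.49 and 0.44 in the pieces that start 400 and 450 kb into the domain. The first piece, whose reach into interval 8 is shortest, had 0.40 (0.19 to 0.61). In squares of 50 kb by 50 kb, 100 kb to 1 Mb apart, a log2 difference of 0.3 or more was used as a mark of size. Of 78 squares between the domain and interval 8, 78 were higher in the stop-cassette map, where 747 of all 1368 squares were. These 78 had a median of 0.36 and a range of 0.023 to 0.70. Of these 51 passed 0.3 upward, or 65.4%, against 8.99% of all 1368 squares of the map (123 squares). Their median observed over expected was 0.680 in the stop-cassette forelimb, 0.520 in the wild-type forelimb, 0.467 in the forebrain and 0.447 in the midhindbrain boundary.

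The other squares of the domain differed less, and are read against the whole map, in which 8.99% passed 0.3 upward, 2.27% passed it downward (31 squares) and the median was 0.021. Inside the domain 0 of 55 squares passed it in either direction, with a median of -0.076 and a range of -0.24 to 0.11. In those, 47 were lower and 8 higher, against 621 lower and 747 higher of the 1368 squares of the map. With interval 7, 1 of 84 passed upward, and the median was 0.029. With interval 5, 2 of 128 passed upward and 9 downward, around a median of -0.061. With interval 4, 5 of 36 passed upward and 0 downward, around a median of 0.13. The 967 squares with no part in the domain had a median of 0.019, with 63 past 0.3 upward and 22 downward.

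**Figure D3:**
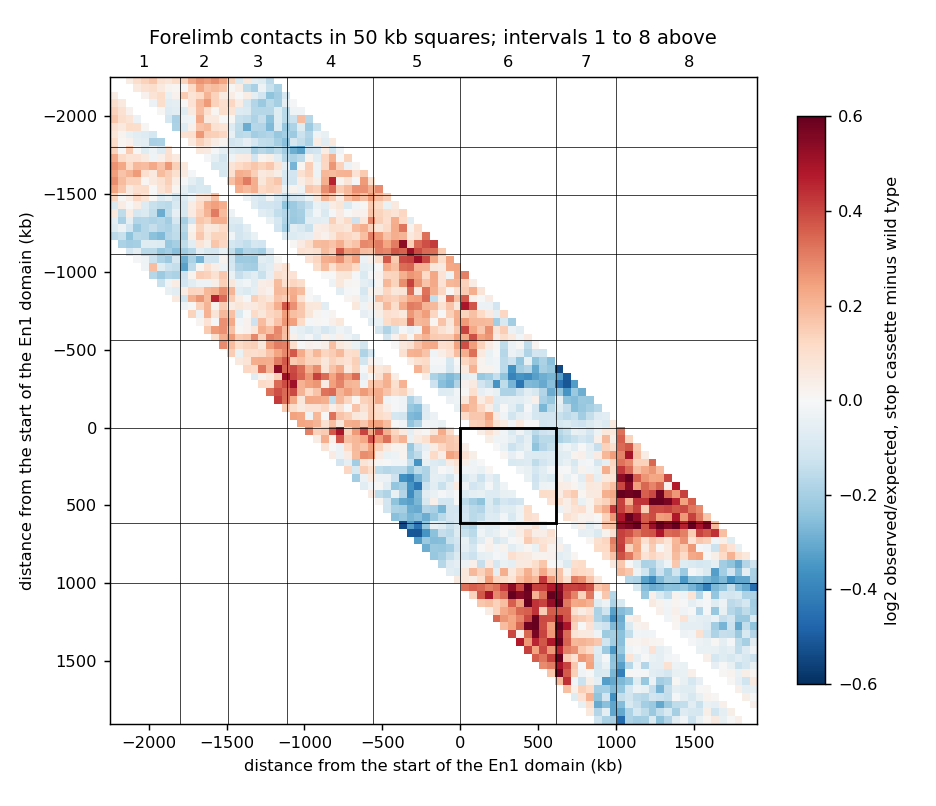
Log2 difference in observed over expected, stop cassette minus wild type, in 50 kb squares 100 kb to 1 Mb apart; both axes give the distance from the start of the En1 domain (kb), thin lines mark the wild-type boundaries and numbers the intervals. The outlined En1 domain is pale, with 0 of 55 squares past 0.3, while the block where it meets interval 8 is red, with 51 of 78 past 0.3.

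Contacts that span the En1 domain moved the other way. Between intervals 5 and 7, its neighbours, observed over expected was 1.82 in the stop-cassette forelimb, 2.07 in the wild-type forelimb, 1.95 in the forebrain and 2.20 in the midhindbrain boundary. The log2 difference was -0.18 (-0.20 to -0.16), the most negative of the 22 pairs of intervals. The 28 squares of this block had a median of -0.18, with 27 lower and 1 higher, and 4 passed 0.3 downward (14.3%). Over all 1368 squares 621 were lower and 747 higher, and 2.27% passed 0.3 downward. The neighbours of the domain were therefore enriched for contacts with each other in every map, by least in the stop-cassette map. Beyond 1 Mb, contacts that span the domain stood at 0.986 in the stop-cassette forelimb and 1.06 in the wild-type forelimb, a log2 difference of -0.11.

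Beyond 1 Mb the domain's own contacts were higher on both sides in the stop-cassette map, relative to the map's mean at these distances. To the left they stood at 0.928 in the stop-cassette forelimb, 0.887 in the wild-type forelimb, 0.859 in the forebrain and 0.790 in the midhindbrain boundary, a log2 difference of 0.066 (0.054 to 0.078). To the right, where only interval 8 lies in reach, they stood at 0.831, 0.761, 0.748 and 0.773, a log2 difference of 0.13 (0.10 to 0.15). On the left the higher values came from intervals 2 and 3, at 0.17 each, and interval 1, at 0.053. The parts of intervals 4 and 5 beyond 1 Mb were lower, at -0.11 and -0.10. The sign for interval 4 thus depended on distance, higher within 1 Mb and lower beyond it.

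**Figure D4:**
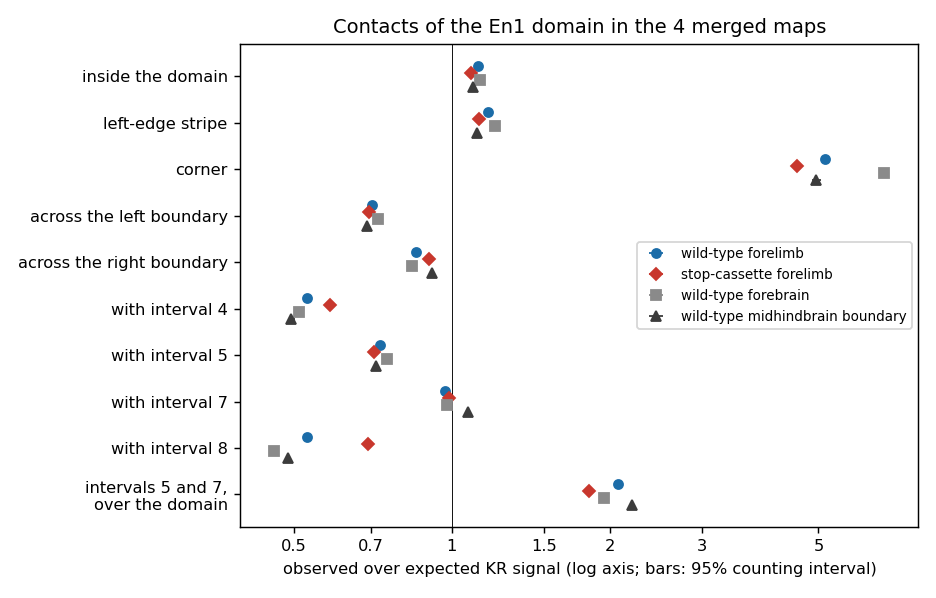
Observed over expected balanced signal (x axis, log scale) of blocks of contacts of the En1 domain in the 4 merged maps; bars, mostly hidden by the symbols, are 95% counting intervals and the line marks 1. The stop-cassette diamonds lie apart from all 3 wild-type maps with interval 8 (0.692 against 0.458 to 0.530) and at the corner (4.55 against 4.95 to 6.67), and close to the midhindbrain boundary inside the domain (1.09 against 1.10).

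No single contact inside the En1 domain was called, and few were called over the map. An exact binomial test on the raw counts was run for each of 35433 bin pairs from 30 kb to 1 Mb, given 20 or more counts in the forelimb maps together, and a bin pair was called at a Benjamini-Hochberg adjusted p under 0.05 and a 2-fold difference. Over the map 10 bin pairs were called, or 0.0282%, of which 7 were higher (0.0198%) and 3 lower (0.00847%) in the mutant map, and 3349 had an unadjusted p under 0.05 (9.45%). All 1711 bin pairs inside the domain were tested. Of these 0 were called, which does not set the domain apart at so small a share over the map. By the exact binomial test 163 had an unadjusted p under 0.05, or 9.53%, close to the 9.45% over the map. Of the 163, 126 fell below and 37 above the wild-type share. None of the 1711 bin pairs reached a 2-fold difference, and the smallest exact binomial adjusted p was 0.048. Of the 4153 tested to the left side 0 were called, with 357 at an unadjusted p under 0.05. The median bin pair inside the domain rested on 490 contacts over both maps, and the median tested pair of the left side on 93.

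The bin pairs inside the domain with the lowest and highest ratios are given as a description. The lowest joined 122580001 to 122930001, 350 kb apart, with 115 contacts in wild type and 40 in the mutant map, a log2 ratio of -0.90 (adjusted p = 0.12, exact binomial test). Its observed over expected was 1.08 in the stop-cassette forelimb, 2.03 in the wild-type forelimb, 1.58 in the forebrain and 1.32 in the midhindbrain boundary. The next joined 122800001 to 123000001, with 122 contacts in wild type and 48 in the mutant map, a log2 ratio of -0.75 (adjusted p = 0.19, exact binomial test). The highest joined 122890001 to 123000001, with 43 and 49 contacts in this order and a log2 ratio of 0.83 (adjusted p = 0.31, exact binomial test), and 122550001 to 122890001, with 39 and 42 and a log2 ratio of 0.66 (adjusted p = 0.53, exact binomial test). Both of the highest involve 122890001, a bin that ranks 11th from the lowest of 420 in contacts. The lowest pair likewise involves a thin bin, 122930001, which ranks 12th, and the next lowest involves 122800001, which ranks 35th. The 50 kb squares around these pairs differed by -0.24, -0.068, 0.13 and -0.093, so for the last pair the surrounding square had the opposite sign.

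All 4 called bin pairs of the En1 domain were higher in the stop-cassette map and joined it to interval 8. That is 4 of 3966 bin pairs tested on the right side, against 0.0198% called higher over the map, and 394 of the 3966 had an unadjusted p under 0.05. They lie in the block described above and are no independent support for it. The nearest pair joined 123070001, the last bin of the domain, to 123490001, 420 kb away. Contacts numbered 42 in wild type and 78 in the mutant map, a log2 ratio of 1.18 (adjusted p = 0.028, exact binomial test). Observed over expected was 0.848 there, against 0.372 in the wild-type forelimb, 0.293 in the forebrain and 0.325 in the midhindbrain boundary. The second joined 122880001 to 123500001, with 30 contacts in wild type and 58 in the mutant map, a log2 ratio of 1.41 (adjusted p = 0.026, exact binomial test) and observed over expected of 0.949, 0.354, 0.373 and 0.463 in the same order. The third joined 122940001 to 123690001, with 18 and 43 contacts in wild type and mutant and observed over expected of 1.07, 0.322, 0.462 and 0.439. The fourth joined 122780001 to 123610001, with 8 and 27 contacts and observed over expected of 0.952, 0.194, 0.371 and 0.570. In each pair the stop-cassette map stood near the average of its distance, between 0.848 and 1.07, and the 3 wild-type maps stood below it, between 0.194 and 0.570. Calling required a 2-fold difference between the forelimb maps, so the selection in part set this gap. The whole block stood lower in the stop-cassette map, at 0.692. The 50 kb squares around the pairs differed by 0.55, 0.54, 0.60 and 0.25, less than the pairs themselves. With the variance inflated by the observed excess over counting error, a factor of 1.51, a normal approximation replaced the exact test. All 4 then lost significance, at an adjusted p of 0.60 to 0.65 in that approximation. Of the 1595 bin pairs tested between the domain and interval 8, 161 were at least 2-fold higher and 9 at least 2-fold lower, against 0.94% higher and 0.404% lower over the map, and the median log2 ratio was 0.37. These bin pairs held a median of 41 contacts over both maps, against 136 over the map. Ratios of 2-fold arise more readily at such low counts, so the shares are not compared at like depth. Interval 7 also had a higher call with interval 8, just right of the domain. It joined 123090001 to 123600001, with 18 contacts in wild type and 45 in the mutant map (log2 ratio 1.64, adjusted p = 0.033, exact binomial test). The square around it differed by 0.63. Lower calls between these intervals joined 123460001 to 123670001 and 123450001 to 123680001. Intervals 7 and 8 together differed by 0.048 (0.035 to 0.061).

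The contrast of the whole map differed between the forelimb maps. Over the 1368 squares, log2 observed over expected had an SD of 0.490 in the stop-cassette forelimb, 0.585 in the wild-type forelimb, 0.625 in the forebrain and 0.635 in the midhindbrain boundary. Counting error contributed an SD of only 0.040 to 0.044. Inside the En1 domain the SD was 0.437, 0.489, 0.544 and 0.455 in the same order. The stop-cassette map was thus flatter than the 3 wild-type maps, within the domain and over the map. To describe this by a map outside the comparison, squares were sorted into 6 classes by their level in forebrain, and the median difference between the forelimb maps was taken in each.

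From the class least in contact in forebrain to the class most in contact, the median log2 difference was 0.26, 0.14, 0.092, -0.022, -0.081 and -0.14. Of the 137 squares in the lowest class 129 were higher in the stop-cassette map, and of the 137 in the highest class 10 were. Of all 1368 squares 747 were. Squares inside the En1 domain fell in the upper 4 classes, with medians of 0.039, -0.030, -0.081 and -0.14. The rest of the map had 0.092, -0.019, -0.084 and -0.14 in the same classes. The loss inside the domain was therefore of the size found in squares of like level elsewhere in the map, except for the lowest of these classes, which held only 3 of its squares. Squares between the domain and interval 8 differed from this, with a median of 0.40 in the lowest class, where the other 88 squares had 0.20. In the next class they had 0.27 against 0.12, and in the third 0.30 against 0.091. Weak contacts elsewhere were thus higher in the stop-cassette map too, with smaller medians than those of the domain with interval 8 in each of these 3 classes. What part the flatter map has in these values was not tested.

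**Figure D5:**
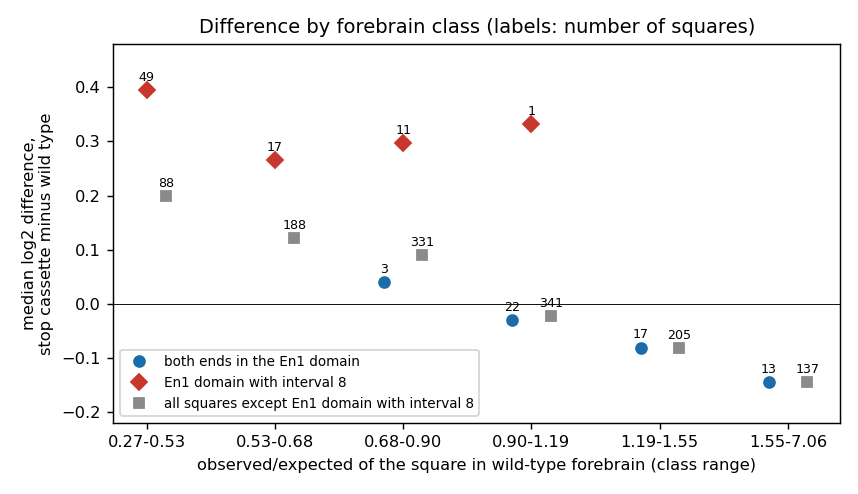
Median log2 difference in observed over expected, stop cassette minus wild type (y axis), of squares sorted into 6 classes by their level in wild-type forebrain (x axis), with the number of squares at each point. Grey squares stand for all squares except those joining the En1 domain to interval 8, and include those inside the domain. Squares inside the domain (circles) lie close to the grey ones in the 3 highest classes. They lie below them where the domain has 3 squares (0.039 against 0.091). Squares joining the domain to interval 8 (diamonds) lie above the grey ones, at 0.40 against 0.20 in the lowest class.

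The distribution of contacts over distance also differed over the map as a whole. As a share of all contacts, those at 30 kb or more were highest in wild-type forelimb and lower in each of the other maps. Per bin pair, as a share of all contacts at 30 kb or more, the stop-cassette map had 0.953 of the wild-type level from 110 to 300 kb and 0.960 from 310 to 600 kb. It had 1.16 of that level from 1010 to 1500 kb and 1.27 from 2010 to 2500 kb. It was lower at all 50 distances from 110 to 600 kb, and higher at 293 of the 300 distances from just over 1 Mb to 4 Mb. From 2010 to 2500 kb the midhindbrain boundary had 0.883 of the level of forebrain. Scaling within distance removes these shifts from the values above, but it does not remove a difference in contrast.

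Balancing gives every bin the same total, so the coverage it removed was looked at on its own. The share of all contacts at a bin differed between the forelimb maps with an SD of 0.12 on the log2 scale over the 420 bins, against 0.044 between the brain maps. From wild-type forelimb, forebrain differed with an SD of 0.095 and midhindbrain boundary with an SD of 0.079. The En1 domain as a whole differed by -0.012, and its bins by -0.23 to 0.24. The lowest were 122770001, with 46499 contacts in wild type and 33179 in the mutant map (log2 ratio of shares -0.23), 122930001 (-0.22) and 122760001 (-0.21). These 3 were also low against wild-type forelimb in forebrain, at -0.17, -0.12 and -0.18, and in midhindbrain boundary, at -0.12, -0.18 and -0.15. The highest were 123040001, with 25947 and 25567 contacts (log2 ratio of shares 0.24), 122850001 (0.22) and 122950001 (0.18). There forebrain and midhindbrain boundary stood between -0.062 and 0.030, so neither brain map showed the higher coverage of these bins. Whether the inserted sequence bears on any bin's coverage was not tested, since its position was not used.

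Profiles of single bins in the domain were more alike than those of the rest of the region in every pair of maps compared. Each bin's profile of observed over expected, as the log2 of its value plus 1, was correlated between maps across the other bins, which share libraries and depth. The 61 bins of the domain had a median r of 0.868 between the forelimb maps, from 0.473 to 0.984, and the other 359 bins had 0.788. Depth differed as well, with a median of 37609 contacts per bin in the domain and 30862 in the rest of the stop-cassette map. The same domain bins had 0.909 between the brain maps, where the rest had 0.864, and 0.906 between forebrain and wild-type forelimb, where the rest had 0.850. Between midhindbrain boundary and wild-type forelimb these medians were 0.882 and 0.844. The 3 lowest were 122890001 at 0.473, 122800001 at 0.530 and 122790001 at 0.553. Their coverage ranked 11th, 35th and 73rd from the lowest of 420, and they were low between the brain maps as well, at 0.594, 0.673 and 0.669.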

How the data were processed

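Capture Hi-C maps of 4 groups were used, each merged by the authors from 2 or 3 libraries, per the labels. Bowtie2 2.3.4.1, Juicer 1.7.6 and mm9 are named in the submitters' processing notes, and the map names record HiCUP and a mapping quality of 30. As deposited, a raw map gives the contact count of each pair of 10 kb bins. Its balanced map, as deposited, gives a signal after Knight-Ruiz (KR) balancing, checked to equal the count divided by 1 factor per bin, which removes differences that act on a whole bin.

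From these, Python 3.11.15, numpy 2.4.6 and scipy 1.17.1 were used to compute observed over expected signal within distance, from 30 kb, and insulation scores. Intervals are 95% counting intervals, and reads are not independent molecules where duplicates remain. Bin pairs were tested by a two-sided exact binomial test with shares set by distance and KR factors, Benjamini-Hochberg adjustment and a prior count of 0.5, a procedure tested on simulated Poisson counts, which lack the excess variance found between these maps. Boundaries had to lie 0.2 below the flanking scores. Text names all called bin pairs of the En1 domain, its 2 highest and 2 lowest ratios, all intervals, the 3 highest and 3 lowest bins by coverage and the 3 least alike profiles. The domain and these lists were chosen with earlier results of these data known. Alternatives changed balancing, expected values, distance, thin bins, square size, count minimum, bin size, fold and error model.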

Additional observations from a re-analysis of the deposited data

How the results depend on the processing

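No paired analysis was possible because each group was deposited as 1 merged map, and for the same reason no replicate could be left out. Of 35 alternatives for block contacts and insulation, 34 kept the sign and 20 stayed within the counting interval of the reported value. On raw counts without KR factors, the log2 difference was -0.051 inside the En1 domain, -0.021 for its left-edge stripe and -0.069 for its corner, and insulation differed by 0.090 at the left and 0.10 at the right boundary. Contacts across the left boundary reversed there, to 0.0097. Without scaling within distance, the differences were -0.076 inside, -0.057 across the left boundary, 0.047 across the right boundary, -0.096 for the stripe and -0.24 for the corner. From 50 kb the inside difference was -0.050, and without the thinnest 5% of bins the right-boundary difference was 0.078. Squares of 100 and 300 kb gave 0.063 and 0.053 at the left boundary. Bin pairs called over the map numbered 93 on raw counts (1 of them inside the domain), 18 at 1.5-fold and 0 with inflated variance. In that last setting 1752 had an unadjusted p under 0.05 by a normal approximation, which replaced the exact binomial test. The alternatives for interval 8 were added after seeing the data. Calls between it and the domain numbered 24 on raw counts, 5 with 20 kb bins and 0 with inflated variance. The causes were not tested. Depth limits single bin pairs far from the diagonal most, with a median of 41 contacts over both maps in that block.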
